A study of Bos taurus and Bos indicus with 6 samples.

Results

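Mitochondrial carriers and mitochondrial protein import were examined in circulating white blood cells of cattle of different breeds under tick challenge. The genes are those of the SLC25A family, which encode the carrier proteins of the inner membrane, and the TIMM and TOMM genes, which encode the translocases of the inner and outer membranes. Every probe set with a single gene symbol beginning with SLC25A, TIMM or TOMM was taken, and a probe set is the group of short probes on the array that reports 1 transcript. This gave 61 probe sets for 45 genes, of 24016 probe sets and 9155 named genes in all. Of the 45 genes, 27 were SLC25A, 11 were TIMM and 7 were TOMM. Each gene was read from its brightest probe set, the one with the highest mean over all 6 arrays.

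The groups were 3 Holstein (Bos taurus) and 3 Brahman (Bos indicus) females, all 6 months old and all heavily challenged with the cattle tick Rhipicephalus microplus. Each animal gave 1 array, hybridised with RNA of all white cells left after red cell lysis, without sorting or culture. Uninfested animals were not analysed here, so a breed difference that exists without ticks is contained in every value. The comparison asks how leukocyte expression differs between the breeds while both carry ticks.

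Mitochondria import nearly all of their proteins from the cytosol. Precursors enter through the TOM pore of the outer membrane and are then sorted. Those with a cleavable presequence pass through the TIM23 complex into the matrix, and carrier proteins are escorted by small TIM chaperones to the TIM22 complex, which inserts them into the inner membrane. The SLC25A carriers are themselves clients of that second route, and they exchange nucleotides, phosphate, organic acids, amino acids, acylcarnitines, cofactors and iron across the inner membrane. Leukocytes differ in how far they rely on mitochondria: lymphocytes and monocytes hold many, and mature neutrophils few.

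Levels are log2 RMA values, and differences are Brahman minus Holstein on that log2 scale, with the moderated standard error (SE) and 95% interval from limma. An adjusted p is limma's, by Benjamini-Hochberg over all 24016 probe sets, and a gene was called at an adjusted p under 0.05. Of the 45 genes, 0 were called by limma, where 33 of all probe sets (0.137%) were. At an unadjusted p under 0.05, 11 genes (24.4%) were lower in Brahman, against 6.47% of all probe sets and 9.62% of all named genes. At that threshold 3 (6.67%) were higher, against 7.12% and 6.23%. Most of the 45 genes are bright, and of all genes with a mean level of 7 or more 13.4% were lower and 5.53% higher. The breeds did not overlap, with every Brahman array below every Holstein array, in 12 genes, against 8.37% of all probe sets and 12.2% of all named genes. Every Brahman array stood above every Holstein array in 4 genes, against 11.7% and 10.4%. The expression level of these 14 genes on each array is shown in the plot of member values.

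**Figure D1:**
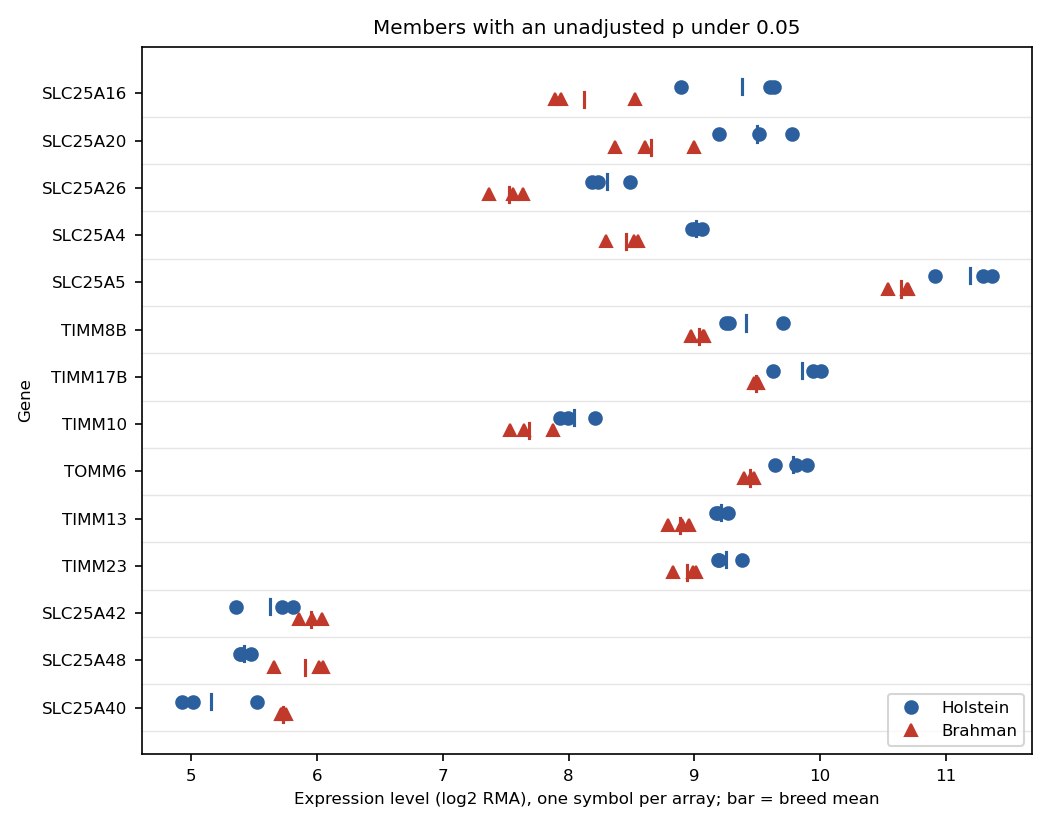
Level on each array (log2 RMA, x axis) of the 14 genes with an unadjusted p under 0.05 (y axis), ordered by breed difference; circles are Holstein, triangles are Brahman and bars are breed means. The 11 genes lower in Brahman have Holstein means from 8.05 to 11.19, and the 3 higher genes lie at 6.05 or below on every array.

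Among the carriers of nucleotides and phosphate, the ADP/ATP carriers SLC25A4 and SLC25A5 had lower levels in Brahman and SLC25A6 did not differ beyond its spread. These carriers exchange cytosolic ADP for ATP made in the matrix. SLC25A4 read 8.978, 9.061 and 9.002 on Holstein 1, 2 and 3, and 8.518, 8.552 and 8.298 on Brahman 1, 2 and 3. The groups do not overlap, and the Holstein arrays are close together (SD 0.04). Its difference was -0.56 (SE 0.10, 95% interval -0.79 to -0.32, unadjusted p = 0.000691, adjusted p = 0.111), a 1.47-fold lower level in Brahman.

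SLC25A5 read 11.36, 11.29 and 10.92 in Holstein and 10.69, 10.70 and 10.54 in Brahman. Holstein 3 was the lowest Holstein array here, still above every Brahman array. The difference was -0.55 (SE 0.13, adjusted p = 0.187). A dim probe set of SLC25A5, at a mean of 5.10, differed by 0.44 in the other direction (unadjusted p = 0.0675, adjusted p = 0.404). On it every Brahman array stood above every Holstein array. The direction for this gene thus rests on the bright probe set, and the mean of both differed by -0.05 (unadjusted p = 0.709).

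SLC25A6 was the brightest of the 45 genes, with 13.25, 12.79 and 13.20 in Holstein and 13.23, 13.03 and 12.91 in Brahman. Its levels overlap, and the difference was -0.03 with a 95% interval from -0.38 to 0.32. Its other probe sets differed by -0.18 and 0.02. Whether the breed differences themselves differ among the ADP/ATP carriers was tested by an exact two-sided permutation test on within-array differences, over 3 pairs chosen after their values were seen. The difference of the breed differences was -0.53 for SLC25A4 against SLC25A6 and -0.52 for SLC25A5 against SLC25A6. Each of these gave an exact p = 0.1 (0.15 adjusted over the 3 pairs), and a design of 3 arrays per breed cannot go lower. For SLC25A4 against SLC25A5 it was -0.01 (exact p = 0.9). The coding sequences of these paralogs are similar, and the specificity of their probes was not tested.

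The phosphate carrier SLC25A3 brings in phosphate for ATP synthesis. It was nearly equal between breeds, at 11.50 ± 0.04 in Brahman and 11.52 ± 0.005 in Holstein (SD, n = 3 each), with an interval of the difference from -0.20 to 0.18. The ATP-magnesium/phosphate carrier SLC25A25 differed by 0.09 (interval -0.28 to 0.46). Of these 5 genes, 2 had an unadjusted p under 0.05, and both were lower.

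Carriers of organic acids, nucleotides and cofactors included the largest difference of the 45 genes. SLC25A16, related to a yeast carrier needed for coenzyme A accumulation in mitochondria, read 9.63, 9.60 and 8.89 in Holstein and 7.94, 8.53 and 7.89 in Brahman. Every Brahman array lay below every Holstein array, although the animals of each breed were spread widely and Holstein 3 and Brahman 2 came closest to each other. The difference was -1.26 (SE 0.25, unadjusted p = 0.00118, adjusted p = 0.123), a 2.39-fold lower level in Brahman.

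SLC25A26 imports S-adenosylmethionine, the methyl donor for mitochondrial RNA and protein methylation, and had the smallest p of the 45 genes. Its levels were 8.23, 8.48 and 8.19 in Holstein and 7.37, 7.56 and 7.64 in Brahman. The groups are separated by more than the SD of either breed, which was 0.16 in Holstein and 0.14 in Brahman. The difference was -0.78 (SE 0.12, 95% interval -1.06 to -0.50, unadjusted p = 0.000265, adjusted p = 0.0834). A second SLC25A26 probe set was lower as well, at 7.22 against 7.51 (-0.29, adjusted p = 0.298). The dimmest, at 4.32 in Brahman and 4.05 in Holstein, differed by 0.26. It is dimmer than 5.08, the lower quartile of probe set means, and such a level is not shown to be above background. The mean of the probe sets of SLC25A26 differed by -0.27 (unadjusted p = 0.0129), outside the interval of the brightest one, and with the spike-in level added to the fit the brightest differed by -0.47.

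SLC25A42, which carries coenzyme A into the matrix, stood on the other side: 5.72, 5.35 and 5.81 in Holstein against 5.96, 5.86 and 6.03 in Brahman. The gap between the highest Holstein and the lowest Brahman array is narrow, and the difference was 0.33 (SE 0.14, adjusted p = 0.357). The 2-oxoglutarate carrier SLC25A11 separated the breeds without passing the unadjusted threshold (-0.20, unadjusted p = 0.0807).

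The remaining carriers of this group gave differences from -0.13 to 0.09, all with overlap. They are the citrate carrier SLC25A1, the peroxisomal carrier SLC25A17, the oxodicarboxylate carrier SLC25A21, the pyrimidine nucleotide carrier SLC25A33, SLC25A34 and the NAD carrier SLC25A51. The interval for SLC25A1 was -0.16 to 0.25 and that for SLC25A51 was -0.34 to 0.34. SLC25A21 averaged 3.56 in Brahman and 3.70 in Holstein, levels not shown to be above background. In the whole group of 10 genes, 2 were lower and 1 was higher at an unadjusted p under 0.05.

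Among carriers of amino acids and acylcarnitines, values went in both directions. SLC25A20 exchanges acylcarnitines for carnitine and so admits long-chain fatty acids for oxidation. It read 9.199, 9.774 and 9.512 in Holstein and 8.367, 8.609 and 8.999 in Brahman. The breeds do not overlap, and Brahman 3 and Holstein 1 stand closest. The difference was -0.84 (SE 0.20, unadjusted p = 0.00353, adjusted p = 0.179), or 1.79-fold. Its second probe set also separated the breeds, at 7.87 ± 0.20 in Brahman and 8.38 ± 0.09 in Holstein (SD, n = 3 each), with a difference of -0.50 (adjusted p = 0.183). That probe set was made from the same transcript record, so it is not an independent gene.

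SLC25A48, linked to choline import, was higher in Brahman, with 5.66, 6.05 and 6.01 against 5.47, 5.39 and 5.38 in Holstein. SLC25A40, a paralog of the glutathione carrier SLC25A39, read 5.75, 5.71 and 5.72 in Brahman against 4.93, 5.01 and 5.52 in Holstein. The differences were 0.49 (SE 0.12, adjusted p = 0.191) and 0.57 (SE 0.16, adjusted p = 0.215). The Brahman arrays agree closely for SLC25A40 while Holstein 3 stands well above the other Holstein arrays. Both genes are dim, with Holstein means of 5.42 and 5.15 close to that quartile, so the sizes are uncertain.

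The basic amino acid carrier SLC25A29 also separated the breeds, at 7.38 ± 0.12 in Brahman and 7.16 ± 0.06 in Holstein (SD, n = 3 each; 0.22, unadjusted p = 0.0533). The aspartate/glutamate carrier SLC25A12, the ornithine carrier SLC25A15, the glycine carrier SLC25A38 and the branched-chain amino acid carrier SLC25A44 overlapped between breeds, with differences of -0.03, -0.004, -0.04 and 0.09. SLC25A15 averaged 4.36 in each breed, below the lower quartile. Of the 8 genes in this group, 1 was lower and 2 were higher at an unadjusted p under 0.05.

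The mitoferrins bring iron to the matrix for haem and iron-sulphur cluster synthesis; SLC25A37 is the form of developing red cells and SLC25A28 the broadly expressed form. SLC25A28 read 9.41, 9.24 and 8.93 in Holstein and 9.11, 8.89 and 9.14 in Brahman, and SLC25A37 averaged 8.69 ± 0.22 and 8.68 ± 0.18 in those breeds (SD, n = 3 each). The breeds overlap for both, and the intervals were -0.47 to 0.19 for SLC25A28 and -0.34 to 0.33 for SLC25A37. Of 17 listed red cell precursor markers 9 were measured, and 2 of these (SLC4A1 and AHSP) were dimmer than that quartile. Their mean level ran from 6.03 to 6.12 on the Brahman arrays and from 5.95 to 6.18 on the Holstein arrays. The Brahman mean was the higher one for 7 of the 9, by 0.01 to 0.12 and with overlap in each. The haem synthesis gene ALAS2, the 1 marker with an unadjusted p under 0.05, went the other way, at 5.62 in Brahman and 6.19 in Holstein (unadjusted p = 0.0386), and the breeds overlap, with Holstein 3 at 5.63. HBA, close to the lower quartile, was lower in Brahman without overlap, at 5.03 against 5.16 (unadjusted p = 0.188). HBB was 9.79 in Brahman and 9.67 in Holstein, with overlap (unadjusted p = 0.735).

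The uncoupling-protein-like carriers SLC25A14 and SLC25A30 overlapped between breeds. SLC25A14 read 6.79, 6.73 and 6.80 in Holstein and 6.70, 6.67 and 6.74 in Brahman, a difference of -0.07 (interval -0.26 to 0.12). SLC25A30 averaged 3.83 in Brahman and 3.94 in Holstein, not shown to be above background.

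Among the 7 TOMM genes, which include the cytosolic TOMM34, the Brahman mean was the lower one for 6, and the median difference was -0.13. The count was 5 after a further quantile normalisation, and leaving out Holstein 2 or Holstein 3 brought the median to -0.07 or -0.04. With the mean of each gene's probe sets the median was -0.04, and with the spike-in level added to the fit it was -0.05, with 4 genes lower. An unadjusted p under 0.05 was reached by 1 of them, TOMM6, a small subunit that helps keep the pore complex assembled. It read 9.81, 9.90 and 9.64 in Holstein and 9.45, 9.40 and 9.47 in Brahman. The Brahman arrays are close together (SD 0.04) and all stand below the Holstein arrays. The difference was -0.34 (SE 0.10, unadjusted p = 0.00939, adjusted p = 0.233).

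The receptor TOMM22 differed by -0.20 and the receptor TOMM70 by -0.13, each with overlap between the breeds. The pore itself, TOMM40, averaged 7.88 in Brahman and 7.91 in Holstein, with an interval of the difference from -0.25 to 0.19. The small subunits TOMM5 and TOMM7 differed by -0.18 and -0.02, and Holstein 1 was the lowest Holstein array in each, at 8.05 and 10.02. TOMM34, a cytosolic cochaperone of import, differed by 0.07.

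For the inner membrane translocases the values leaned further to one side: the Brahman mean was the lower one for all 11 TIMM genes. Their median difference was -0.31, and 5 of them had an unadjusted p under 0.05. TIMM9 (-0.03) and TIMM22 (-0.002) were nearly equal between the breeds. The median over all 9155 genes, each read the same way, was -0.01, and 51.7% of them had lower values. Of the 11 TIMM genes, 10 have a mean level of 7 or more, and among all 5550 genes of that level the median was -0.05, 59.6% had lower values and 13.4% were lower at an unadjusted p under 0.05. The count stayed at 11 of 11 when arrays were centred on their medians or quantile-normalised again. It was 9 to 11 with an array left out, and 8, with a median of -0.19, when the spike-in level was added to the fit.

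In the TIM23 complex, TIMM17B and TIMM23 form the core through which presequence proteins cross. TIMM17B read 10.00, 9.94 and 9.63 in Holstein and 9.49, 9.48 and 9.50 in Brahman. TIMM23 read 9.20, 9.38 and 9.19 in Holstein and 9.01, 8.99 and 8.83 in Brahman. Neither overlaps between breeds, and for TIMM17B the Brahman arrays were nearly identical (SD 0.01) while Holstein 3 lay closest to them. The differences were -0.37 (SE 0.12, adjusted p = 0.261) and -0.31 (SE 0.10, adjusted p = 0.267).

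The other TIM23 subunits had differences of similar sign and overlapped: the motor anchor TIMM44 at -0.19, TIMM21 at -0.19 and the presequence receptor TIMM50 at -0.17. Their intervals reached from -0.49 to 0.15 in all.

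The small TIM chaperones pair as TIMM9 with TIMM10 and TIMM8A or TIMM8B with TIMM13 in the intermembrane space. TIMM13 read 9.27, 9.18 and 9.17 in Holstein and 8.96, 8.90 and 8.79 in Brahman, with a difference of -0.33 (SE 0.09, unadjusted p = 0.00755, adjusted p = 0.214). TIMM10 read 7.99, 8.21 and 7.93 in Holstein and 7.88, 7.65 and 7.53 in Brahman, with a difference of -0.36 (SE 0.13, adjusted p = 0.293). TIMM8B read 9.28, 9.71 and 9.25 in Holstein and 9.07, 9.07 and 8.98 in Brahman, with a difference of -0.37 (SE 0.14, adjusted p = 0.309). In each of the 3 the breeds do not overlap. For TIMM10 the gap was between Holstein 3 and Brahman 1 and was narrow, and for TIMM8B Holstein 2 stood apart above the other Holstein arrays.

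TIMM8A differed by -0.31 with overlap (interval -0.67 to 0.05). TIMM9, the partner of TIMM10, was nearly equal at 7.50 ± 0.23 in Brahman and 7.53 ± 0.29 in Holstein (SD, n = 3 each), with Holstein 2 and Brahman 2 the highest of their breeds. TIMM22, the insertase of carrier proteins, averaged 6.89 in each breed, with an interval from -0.22 to 0.22.

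Of the 27 SLC25A carriers, 16 had lower values in Brahman and 11 higher, with a median difference of -0.01. Over the 16 alternatives the median ran from -0.09, with the spike-in level added to the fit, to 0.003, after a further quantile normalisation and without Brahman 1. It was -0.05 without Brahman 3 and -0.04 with arrays centred on their medians. The mean over the carriers was lower on every Brahman array, from 7.62 to 7.71, than on every Holstein array, from 7.75 to 7.79. That mean leans on the carriers of largest difference, SLC25A16 (-1.26), SLC25A20 (-0.84) and SLC25A26 (-0.78), and the median of -0.01 does not. The unadjusted p was under 0.05 for 5 lower (18.5%) and 3 higher (11.1%) carriers, against 9.62% and 6.23% of all named genes. Among all genes with a mean level of 7 or more these shares were 13.4% and 5.53%.

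**Figure D2:**
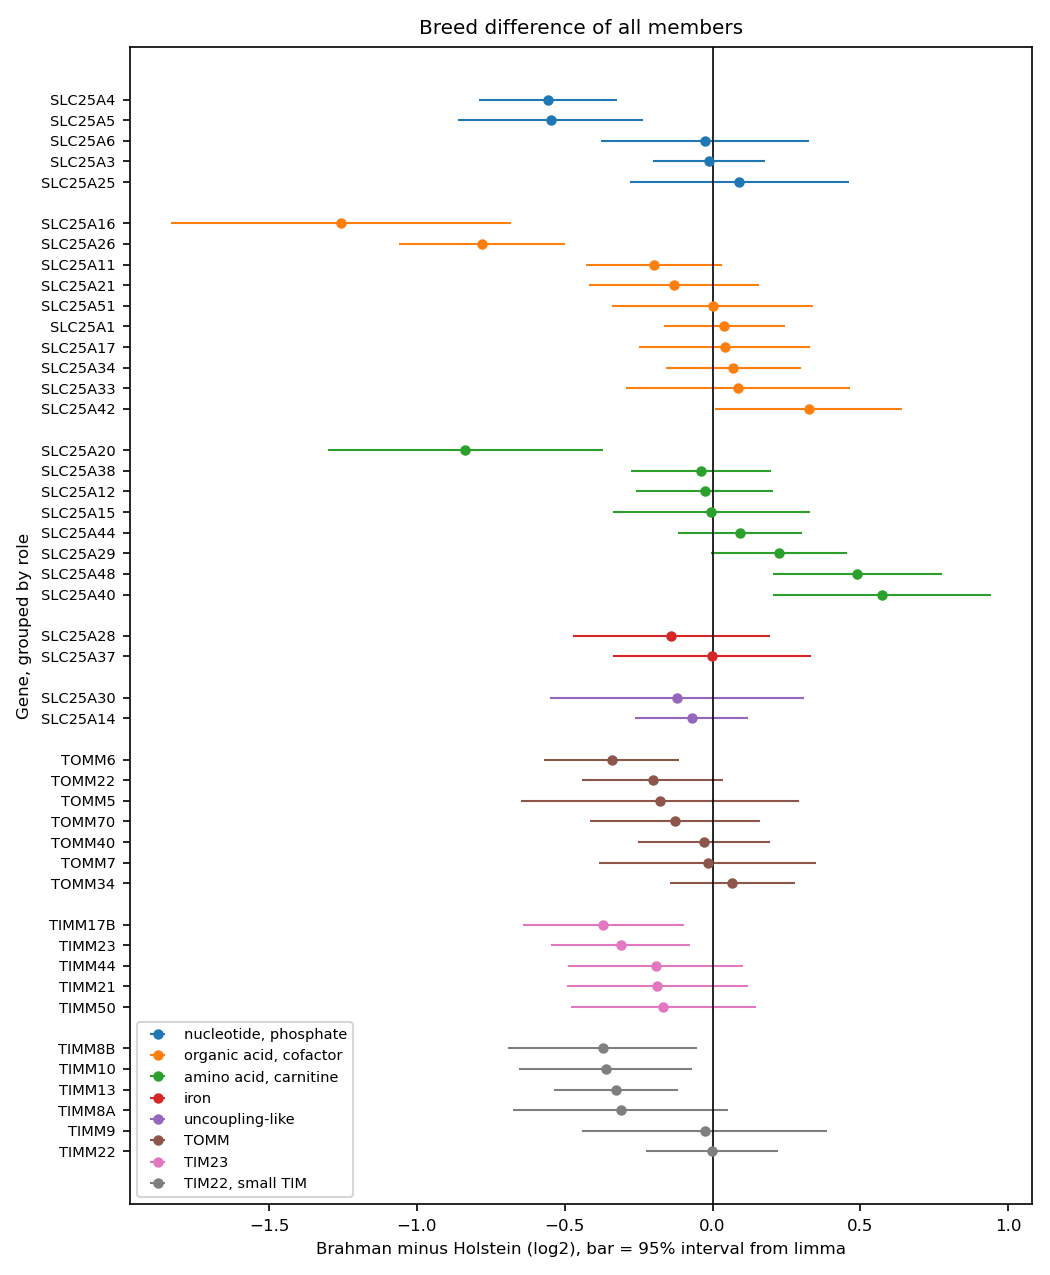
Brahman minus Holstein difference (log2, x axis) of all 45 genes (y axis), grouped by role; points are limma estimates and bars their 95% intervals, with n = 3 arrays per breed. All 11 TIMM estimates lie below 0, with TIMM9 and TIMM22 close to it. The SLC25A carriers reach from -1.26 for SLC25A16 to 0.57 for SLC25A40.

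Other genes of import and of mitochondrial transport were read from 4 lists. Of 60 listed genes 43 were measured. Lower values in Brahman were found in 35 of these 43, and the median difference was -0.19. The unadjusted p was under 0.05 for 12 lower genes and 1 higher gene, and limma called 0. These genes are bright, with a median level of 8.64, and of all genes with a mean level of 7 or more 59.6% had lower values, with 13.4% lower and 5.53% higher at that threshold. In the list of the import motor and presequence processing, 5 of 7 had lower values and 1 passed, the motor cochaperone gene DNAJC19 (-0.24, SE 0.10, unadjusted p = 0.0491). The matrix Hsp70 gene HSPA9 differed by -0.16 with overlap.

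Among genes of matrix folding, 7 of 8 had lower values. The chaperonin genes HSPE1 (-0.34, SE 0.09, unadjusted p = 0.00684) and HSPD1 (-0.27, SE 0.09, unadjusted p = 0.0177) separated the breeds. In sorting, assembly and intermembrane space import 10 of 11 had lower values, and 4 were at an unadjusted p under 0.05. These were the cristae organisers CHCHD3 (-0.32), MICOS13 (-0.39) and IMMT (-0.25), and MTX2 (-0.37), a partner of the outer membrane sorting complex. The intermembrane space import receptor CHCHD4, which oxidises small TIM proteins, differed by -0.16 with overlap.

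Among other mitochondrial transporters 13 of 17 had lower values. The mitochondrial pyruvate carrier subunits MPC1 (-0.35, SE 0.11) and MPC2 (-0.39, SE 0.09) were both lower at an unadjusted p of 0.0169 and 0.00376. So were the outer membrane channels VDAC1 (-0.35) and VDAC2 (-0.25) and the calcium uniporter regulator MICU2 (-0.30). The sideroflexin SFXN5 was higher (0.43, unadjusted p = 0.0159), from a dim Holstein level of 5.01. The uncoupling protein UCP2, the leukocyte form, differed by -0.09 with overlap, and UCP1 and UCP3 averaged 4.11 and 4.20 in Brahman and were not shown to be above background.

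The direction of the difference went with expression level, in these genes and in the array as a whole. Of the 36 members with a mean level of 7 or more, 11 (30.6%) were lower at an unadjusted p under 0.05 and 0 were higher. Among all 5550 genes of that level the shares were 13.4% lower and 5.53% higher. Of the 9 dimmer members 0 were lower and 3 (33.3%) were higher, and of the 3605 dimmer genes 7.30% were higher. Few dimmer genes were lower: of the 881 genes lower at that threshold at any level, 744 had a mean level of 7 or more. Without overlap and lower in Brahman were 12 of the 36 brighter members (33.3%), against 16.7% of brighter genes. Over all 9155 genes the lower share was 9.62% and the higher share 6.23%. The members' shares are given as counts, and no test of the set was made.

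**Figure D3:**
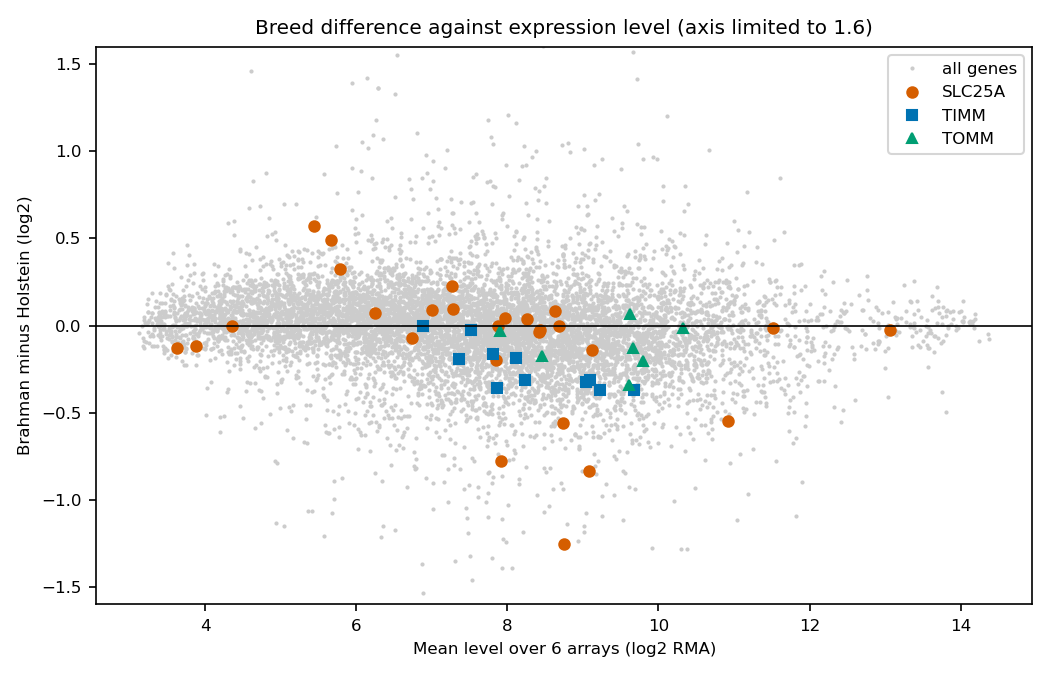
Brahman minus Holstein difference (log2, y axis) against the mean level over 6 arrays (log2 RMA, x axis) for all 9155 genes (grey) and the 45 members (coloured by family); 12 genes lie outside the plotted range of 1.6. TIMM genes (squares) lie below 0 at mean levels from 6.89 to 9.67, with TIMM9 and TIMM22 close to 0. The 3 higher carriers have mean levels from 5.44 to 5.79.

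Averaged over the 45 genes, an array read 8.17, 8.22 and 8.13 in Holstein and 8.01, 8.05 and 8.05 in Brahman. The TIMM mean was 8.36, 8.52 and 8.25 against 8.18, 8.16 and 8.08, the SLC25A mean 7.79, 7.78 and 7.75 against 7.62, 7.69 and 7.71, and the TOMM mean 9.31, 9.47 and 9.41 against 9.28, 9.26 and 9.30. The breeds do not overlap in any of these means. The gaps are small, and for TOMM the lowest Holstein and the highest Brahman array differ by 0.01. The SLC25A mean leans on SLC25A16, SLC25A20 and SLC25A26. Means over all genes were lower in Brahman too, at 7.57 against 7.60 in Holstein. For all genes with a mean level of 7 or more they were 8.89 and 8.95. These are breed means, and their overlap between arrays was not examined. With SLC25A26 as the reference, the member of smallest p, the genes most alike over the 6 arrays were SLC25A20 (Pearson r = 0.948), TOMM6 (0.943) and SLC25A16 (0.907). Each of these separates the breeds, so these values describe that shared separation.

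Other measures moved with the breeds in the same way. The hybridisation spike-in controls, bacterial and phage transcripts meant to be added in equal amount to each sample, averaged 10.14 ± 0.22 in Holstein and 9.72 ± 0.08 in Brahman (SD, n = 3 each), and the breeds do not overlap. The actin 3′ to 5′ difference, a measure of RNA integrity and labelling, was 1.86 ± 0.13 in Holstein and 1.68 ± 0.04 in Brahman. The breeds do not overlap in it, but the lowest Holstein and the highest Brahman array differ by only 0.006. Limma was also fitted with the spike-in level as an added term. That level itself separates the breeds, so the fit cannot tell breed and spike-in level apart. The SE of SLC25A16 rose from 0.25 to 0.49, and 0 of all probe sets were called, against 33 without the term. Members kept, lost or gained in that fit are therefore only described. In it 6 members with a negative difference and 2 with a positive one had an unadjusted p under 0.05. Of all probe sets, 4.42% and 5.57% did. SLC25A26 (-0.47), SLC25A4 (-0.56), SLC25A16 (-1.20) and TIMM13 (-0.44) were among the 6. SLC25A20 (-0.17), TOMM6 (-0.23), TIMM23 (-0.20), TIMM8B (-0.01) and SLC25A42 (0.003) were among those that no longer reached that threshold. The other members at an unadjusted p under 0.05 in that fit, chosen after their values were seen, were SLC25A6 (-0.53), SLC25A25 (-0.47), SLC25A51 (0.45) and TOMM7 (0.54), which had differed by -0.03, 0.09, 4.9e-05 and -0.02 without that term.

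Markers of blood cell types also differed. Of 19 listed T cell markers 17 were measured, all brighter than the lower quartile. The Brahman mean was the higher one for 15, and 12 of the 15 had an unadjusted p under 0.05. Their mean level was 9.24 to 9.41 on the Holstein arrays and 9.60 to 9.77 on the Brahman arrays. B cell markers (4 of 11 measured) averaged 9.90 to 10.12 in Holstein and 10.19 to 10.36 in Brahman, but 2 were higher in Brahman (BLK by 0.97 and CR2 by 0.35) and 2 had lower values (CD79A at -0.23 and MS4A1 at -0.14).

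NK markers (9 of 9 measured) averaged 7.62 to 7.81 in Holstein and 7.88 to 8.46 in Brahman, and 7 had higher values in Brahman, with a median difference of 0.09. GZMB, a cytotoxic granule protease that T cells also make, differed by 2.51 and was the 1 marker of this list called by limma (adjusted p = 0.0264). KLRD1 differed by 0.90 and KLRK1 by 0.78, PRF1 by -0.60 (unadjusted p = 0.0331), and NCR1, GNLY, CD244 and NKG7 by -0.01 to 0.09.

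Monocyte markers (6 of 10 measured) ran from 9.51 to 10.06 in Holstein and 9.42 to 9.61 in Brahman. Values were lower in Brahman for 4 of the 6. CD14 (-0.94, without overlap) and FCGR3A (-0.78, with overlap) were lower at an unadjusted p under 0.05. VCAN, with the smallest p of this list, was higher without overlap (0.92, unadjusted p = 0.000174, adjusted p = 0.0719). Neutrophil markers (11 of 14) ran from 8.09 to 8.29 in Holstein and 8.14 to 8.41 in Brahman, and 7 of the 11 had lower values in Brahman. The 1 with an unadjusted p under 0.05, ALPL, was higher in Brahman without overlap (1.42, unadjusted p = 0.000261, adjusted p = 0.0834). Eosinophil markers (2 of 7) ran from 9.77 to 11.21 in Holstein and 9.92 to 10.56 in Brahman. Platelet markers (4 of 10) ran from 7.96 to 8.27 and 7.89 to 8.30. In these blood cell lists KLRB1, CAMP and ITGA2B had mean levels below 5.08, the lower quartile of probe set means, and the other measured markers lay above it. Without detection calls, their presence on each array was not judged. In unsorted cells, fewer cells of a type and less RNA per cell cannot be told apart. The part of the marker shifts in the carrier and import values was not tested.

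**Figure D4:**
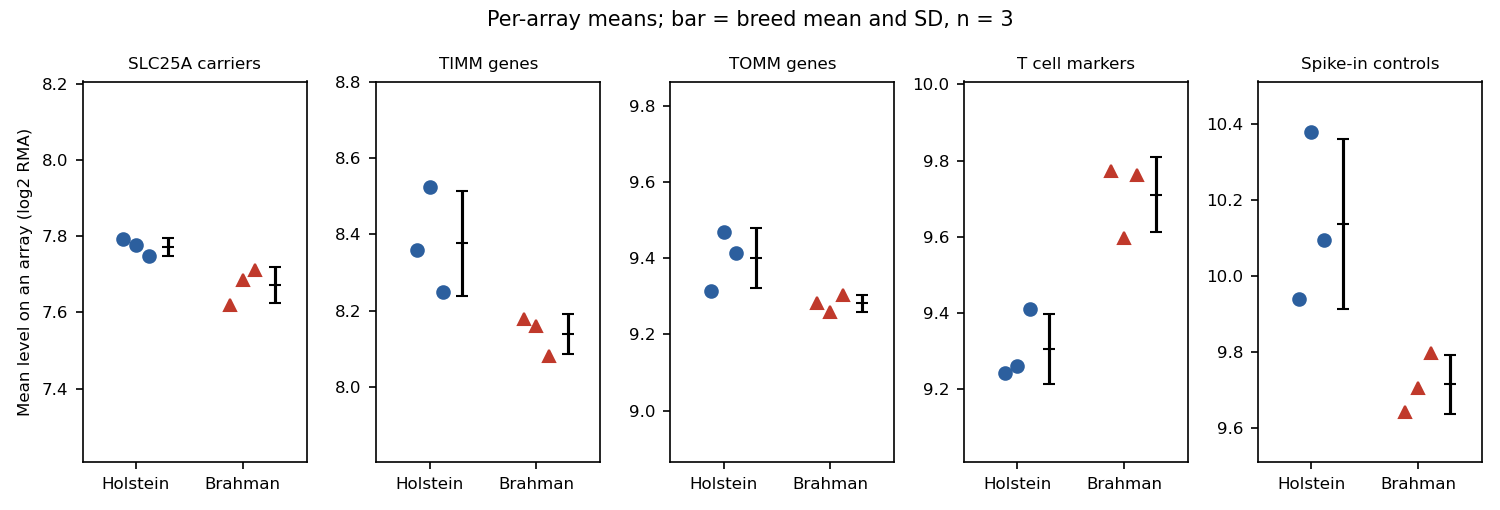
Mean level on each array (log2 RMA, y axis, each panel spanning 1 log2 unit) of the SLC25A, TIMM and TOMM genes, the T cell markers and the spike-in controls; circles are Holstein, triangles Brahman, and bars the breed mean ± SD (n = 3). The gene family means and the spike-in controls are lower on every Brahman array, and the T cell markers higher.

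The genes at an unadjusted p under 0.05 were followed when each array was left out in turn. Of the 11 lower genes 8 stayed under that threshold in all 6 fits, as did 2 of the 3 higher genes, SLC25A48 and SLC25A40. TIMM23 was lost without Brahman 3 (unadjusted p = 0.0645). TIMM10 was lost without Brahman 2, Brahman 3 or Holstein 2 (unadjusted p = 0.0617, 0.0808 and 0.0701). TIMM8B passed without Holstein 1 or Holstein 3 and not without any other array, and without Holstein 2 its difference was -0.22. SLC25A42 passed without Holstein 3 alone and was 0.19 without Holstein 2. These are unadjusted limma values, and 0 of the 45 genes were called in any of the 6 fits.

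Of the 45 genes, 12 had more than 1 probe set, and in 6 of these all probe sets of the gene had the same sign. The 16 probe sets that were not used had a median difference of -0.04, with 8 lower and 8 higher. Their median level was 6.65 against 8.23 for the 45 used.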

How the data were processed

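The values the authors deposited are log2 expression levels, with each array separate. The submitters' processing notes name RMA and no version. RMA subtracts background, equalises the distributions of the arrays and combines the probes of a probe set, so a global change in RNA would be lost. The table holds 24128 probe sets, 112 of them array controls. Scanner intensities and detection calls were not used here, so signal above background could be judged only from the level. Symbols came from the platform annotation, and all 45 matched the RefSeq gene table by Entrez identifier. No sequences or coordinates are given.

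The breeds were compared with limma 3.58.1 in R 4.3.3 (lmFit, eBayes), breed as the only term, two-sided, on all 24016 probe sets. A check on simulated data required only that the size or sign of planted differences was recovered. It set no condition on power or false calls. The arrays are different animals, and 3 per breed limits the precision. The members, lists and alternatives were chosen with earlier results of these data known. Array values are given for members at an unadjusted p under 0.05 and for the smallest p in each role. For SLC25A6 they were added after its values were seen. Alternatives were other scalings, filters, priors, array weights, the replicate number, probe set choice, the spike-in level and each array left out.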

Additional observations from a re-analysis of the deposited data

How the results depend on the processing

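In the 16 alternatives, 0 members were called. None had passed the adjusted threshold in the reported fit either. For the 14 members at an unadjusted p under 0.05, 194 of 221 comparisons with an alternative kept the sign and stayed under 0.05, and 27 did not stay under it, 10 of these with the spike-in level added to the fit. SLC25A5 reversed, at 0.44, with the most variable probe set, which is its dim one. With the mean of a gene's probe sets SLC25A26 was -0.27, against -0.78, and SLC25A5 -0.05, against -0.55. With the spike-in level added to the fit, the count of lower members at an unadjusted p under 0.05 was 6, against 11. That fit cannot tell breed and spike-in level apart. With probe sets of mean level 7 or more, the count of higher members was 0, against 3, because the 3 fall below the filter, and the median difference of the 36 remaining members was -0.15, against -0.07. Leaving out each array in turn gave 8 to 14 lower and 2 to 3 higher members and a median from -0.10 to -0.06. Same-numbered arrays did not pair: their deviations correlated at 0.11, -0.04 and -0.07. The fit with the replicate block gave 11 lower and 3 higher members and a median of -0.07, and called 10 probe sets in all, against 33. Without detection calls, differences of members near or below 5.08 have no known relation to background.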
